A study of Homo sapiens with 18 samples.

Results

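The proteasome genes of T98G cells were described here across 5 drug treatments and their solvent control. They were chosen by symbol alone: every gene whose symbol is PSM, a letter from A to G and a number, with nothing after the number, which gave 48 of the 55128 genes in the deposited table. T98G is an established human glioblastoma cell line, and RNA-Seq was run on 18 libraries, 3 for each of 6 groups, from cells harvested after 2 h of treatment. Cells received 2-deoxy-d-glucose (2DG), a glucose analogue that competes for the first steps of glycolysis, at 10 mM, gnetin H (GH), a compound purified from peony seeds, at 8 µM, or phenformin (Phen), a biguanide that inhibits mitochondrial complex I, at 100 µM. The remaining groups were 2DG+Phen and GH+Phen, at the same doses, and DMSO, the solvent. The dose of 2DG is that of the labels and the study's methods, whereas its account of the results names a higher one. The 3 libraries of a group, which the labels call biological replicates and letter A to C, held 18417756 to 22497604 mapped fragments each. The p-values rest on the spread between libraries of the same group, pooled over all 6 groups. All data come from 1 cell line, and of the glioma or neural stem markers VIM (808 to 1063 FPKM) and CD44 (310 to 379 FPKM) were high in every library, while NES, SOX2 and GFAP did not exceed 0.046 FPKM in any.

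The proteasome is the protease complex that degrades proteins tagged with ubiquitin. Its barrel, the 20S core, consists of outer rings of PSMA (alpha) subunits, which form the gate, and inner rings of PSMB (beta) subunits, some of which carry the peptidase sites. The 19S cap holds a base of PSMC ATPases, which unfold and thread the substrate, and PSMD subunits, which bind ubiquitin and remove it. Further members are the PSME activators, which replace the 19S cap, PSMF1 (PI31), a regulator of the 20S core, and the PSMG chaperones, which assemble that core. PSMB8, PSMB9 and PSMB10 replace the catalytic subunits PSMB5, PSMB6 and PSMB7 in the immunoproteasome, the form induced by interferon that shapes peptides for antigen presentation.

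Values are FPKM, the fragments of a gene divided by its exon length and by the sequencing depth. The 46 members with at least 0.5 FPKM in at least 3 libraries were tested, in 1 limma model of log2(FPKM + 0.1) over the 12108 genes that passed the same filter, and a member is said to rise or fall where its Benjamini-Hochberg adjusted p over all these genes was under 0.05. The remaining members, PSMA8, an alpha subunit of the testis, and PSMB11, the beta subunit of the thymus, were near 0. PSMB11 was listed at 0 in all 18 libraries, where 3 fragments would give 0.0721 to 0.0881 FPKM. PSMA8 had 1 fragment, in Phen A.

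The DMSO and GH+Phen libraries did not behave alike within their groups. In each library the level of a gene, relative to its mean over the 18 libraries, followed the GC content of its transcript, with a slope per 10 percentage points of GC that differed between libraries. Over all tested genes this log2 slope was 0.13, 0.29 and 0.27 in 2DG A, B and C, −0.17, −0.11 and 0.04 in GH, −0.36, −0.27 and −0.21 in Phen, 0.21, 0.08 and 0.31 in 2DG+Phen, −0.19, 0.23 and 0.23 in GH+Phen, and −0.30, −0.23 and 0.05 in DMSO. DMSO C and GH+Phen A thus stand apart from the other libraries of their groups, and counts are given with and without these 2 libraries. Both were picked from these slopes, and leaving them out widens the gap in slope between DMSO and GH+Phen. Counts without them are therefore not independent of that choice. Because the slopes differ between groups as well, changes are also given after each library's trend on GC content and length had been removed. The slopes also went with the replicate letter, since replicate A had the lowest slope in every group but 2DG+Phen. The main fit does not include the letter, and counts with the letter as a block are given at the end, with the dependence on processing. What made the slopes differ was not tested.

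Promoters of the members on which the results turn are printed first, with the motifs that were searched in capitals. They run from 250 bases before to 50 bases after the start of the gene, 5′ to 3′ on the strand of the gene, and come from RefSeq on GRCh38.p14. PSMB10 (chr16:67936801-67937100, minus strand) is shown as the member with the largest rise, with an interferon-stimulated element (GAAANNGAAA). PSMB3 (chr17:38752491-38752790, plus strand), a core subunit that rose, holds CCAAT boxes (CCAAT) and an antioxidant response element (TGACNNNGC), the kind of site that NFE2L1 and NFE2L2 bind. PSMD12 (chr17:67366528-67366827, minus strand), the member with the largest fall, holds an ETS core (CCGGAAG), here on the opposite strand, and an antioxidant response element. PSMD10 (chrX:108091493-108091792, minus strand), the fall next in size, holds a CCAAT box on the opposite strand.
PSMB10: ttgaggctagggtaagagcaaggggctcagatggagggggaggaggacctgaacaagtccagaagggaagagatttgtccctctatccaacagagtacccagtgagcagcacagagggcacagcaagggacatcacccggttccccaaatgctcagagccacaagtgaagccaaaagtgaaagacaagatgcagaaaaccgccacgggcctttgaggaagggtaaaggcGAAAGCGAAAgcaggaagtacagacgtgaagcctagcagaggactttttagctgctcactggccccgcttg
PSMB3: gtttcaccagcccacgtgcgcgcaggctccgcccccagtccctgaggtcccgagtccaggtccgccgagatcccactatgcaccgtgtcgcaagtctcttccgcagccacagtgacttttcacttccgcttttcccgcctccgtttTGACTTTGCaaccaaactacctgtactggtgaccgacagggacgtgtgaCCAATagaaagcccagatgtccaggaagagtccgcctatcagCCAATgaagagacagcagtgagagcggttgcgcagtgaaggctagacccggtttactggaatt
PSMD12: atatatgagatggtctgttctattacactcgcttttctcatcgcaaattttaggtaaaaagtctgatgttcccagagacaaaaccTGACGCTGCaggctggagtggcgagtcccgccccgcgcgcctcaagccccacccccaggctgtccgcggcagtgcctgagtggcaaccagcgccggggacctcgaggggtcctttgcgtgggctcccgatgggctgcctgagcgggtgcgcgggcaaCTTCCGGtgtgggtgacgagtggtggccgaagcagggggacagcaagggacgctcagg
PSMD10: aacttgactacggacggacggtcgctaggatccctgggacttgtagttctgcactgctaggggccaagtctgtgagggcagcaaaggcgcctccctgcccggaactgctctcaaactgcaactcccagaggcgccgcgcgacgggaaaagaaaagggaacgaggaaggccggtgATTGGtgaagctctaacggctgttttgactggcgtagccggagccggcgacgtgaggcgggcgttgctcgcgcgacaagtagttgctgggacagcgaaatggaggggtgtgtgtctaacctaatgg

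A promoter was found for 42 of the 48 members. Searched on both strands, the antioxidant response element was in 31% of these 42 and in 13.6% of 27305 promoters of all genes. The ETS core was likewise in 31% of the members, against 10.7% of all promoters. The interferon-stimulated element was in 6 members (14.3%, against 3.65%), which besides PSMB10 were PSMA4, PSMB4, PSME1, PSME2 and PSMG4. CCAAT was in 45.2% against 35.7%, the C/EBP-ATF element (TGATGNAA) in 2.38% against 3.67%, and the heat shock element (GAANNTTC) in 0.0% of the members against 6.87%. Some windows hold more than 1 of these motifs, and a match is a stretch of letters, not a shown binding site. The antioxidant response element was in 7 of 17 promoters of the members with a GC content of at least 50% and in 6 of 23 of those under 50%, and these are the GC classes by which the members moved, as follows.

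Proteasome transcripts were abundant in the solvent control. Together the 48 members summed to 2185 ± 97.3 FPKM in DMSO (SD, n = 3), and they held between 0.724% and 0.770% of the mapped fragments in each of the 18 libraries. PSMA2, an alpha subunit, had the highest mean of the 18 libraries, 184 FPKM, followed by PSMD2, the large scaffold subunit of the 19S base, with 148 FPKM, and PSMA7, another alpha subunit, with 131 FPKM. The tested members with the lowest means were PSMG4, a 20S chaperone, with 1.20 FPKM, PSMB10 with 2.31 FPKM and PSMD9, a 19S chaperone, with 3.65 FPKM. The abundant members are thus subunits of the particle and 2 of the scarce ones are chaperones.

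The 14 constitutive subunits of the 20S core, which stand in equal number in the particle, were not equal in transcript level. In DMSO they ranged from 22.4 FPKM for PSMA6 to 200 FPKM for PSMA2, an 8.94-fold range. FPKM depends on the exon length that the authors' gene models give a gene, which for PSMA1 was 3301 bases, against 1195 bases for its canonical transcript. With canonical lengths the same fragments gave 48.2 to 298 FPKM, a 6.17-fold range, and PSMA1 became the highest member. The order of the levels therefore rests in part on the gene models, while changes between groups do not.

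**Figure D1:**
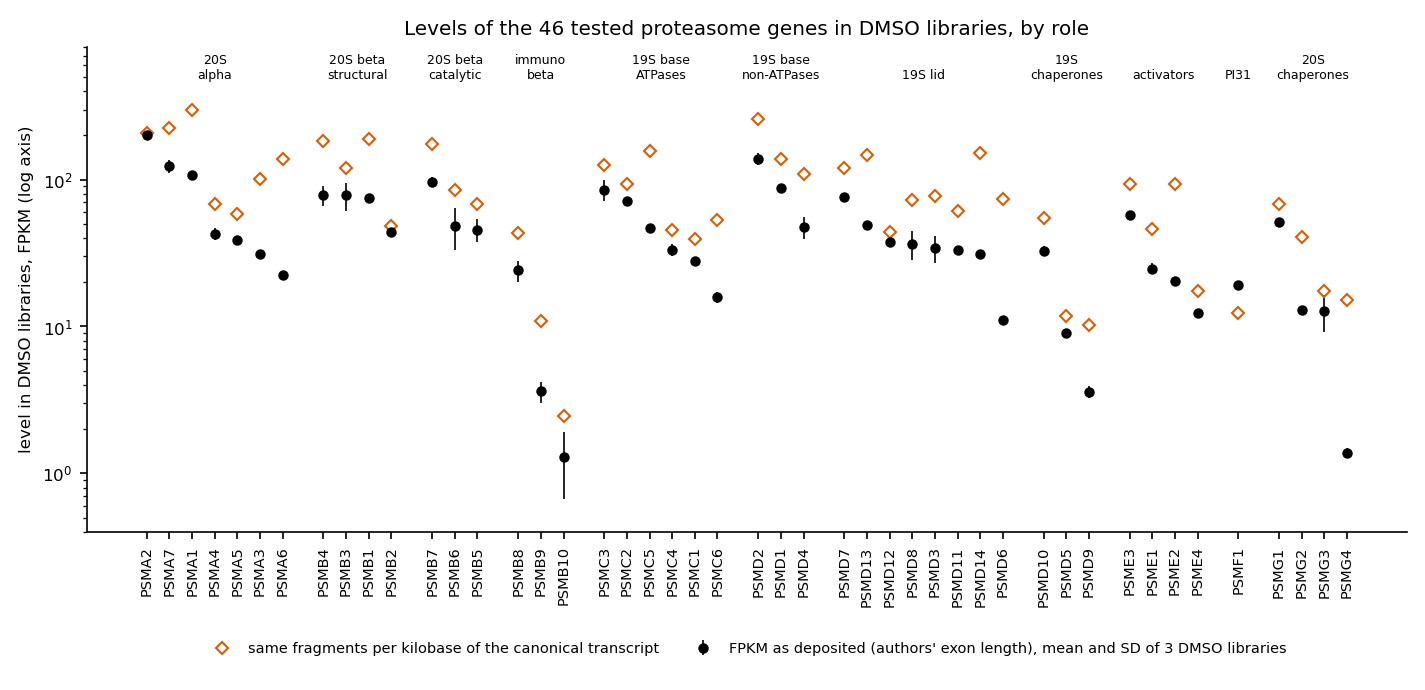
Level of each tested member in the 3 DMSO libraries in FPKM (log axis), grouped by role, as deposited (points, mean with SD) and per kilobase of the canonical transcript (open diamonds). Most subunits of the particle lie above 20 FPKM on both scales, and PSMB10 and PSMG4 are the lowest members on the deposited scale.

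The sum over the members was 2214 ± 26.3 FPKM in 2DG, 2202 ± 40.6 in GH, 2108 ± 19.9 in Phen, 2241 ± 52.3 in 2DG+Phen and 2227 ± 106 in GH+Phen, against the 2185 ± 97.3 of DMSO (SD, n = 3 each). The group means lay within the range of the DMSO libraries, 2115 to 2296 FPKM, except that of Phen, which was below it. The 21 tested members with a GC content of at least 50% summed to 1117 ± 53.2 FPKM in 2DG, 993 ± 67.1 in GH, 853 ± 30.4 in Phen, 1122 ± 65.8 in 2DG+Phen and 1069 ± 167 in GH+Phen, against 938 ± 136 in DMSO, whose libraries ranged from 835 to 1092 FPKM. The means of GH, Phen and GH+Phen lay within that range and those of 2DG and 2DG+Phen above it. The 25 with a lower GC content summed to 1097 ± 28.7 FPKM in 2DG, 1208 ± 28.9 in GH, 1255 ± 19.9 in Phen, 1119 ± 27.0 in 2DG+Phen and 1158 ± 60.8 in GH+Phen, against 1247 ± 38.9 in DMSO, whose libraries ranged from 1204 to 1280 FPKM. Here the means of 2DG, 2DG+Phen and GH+Phen lay below the DMSO libraries. The sums were not tested.

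**Figure D2:**
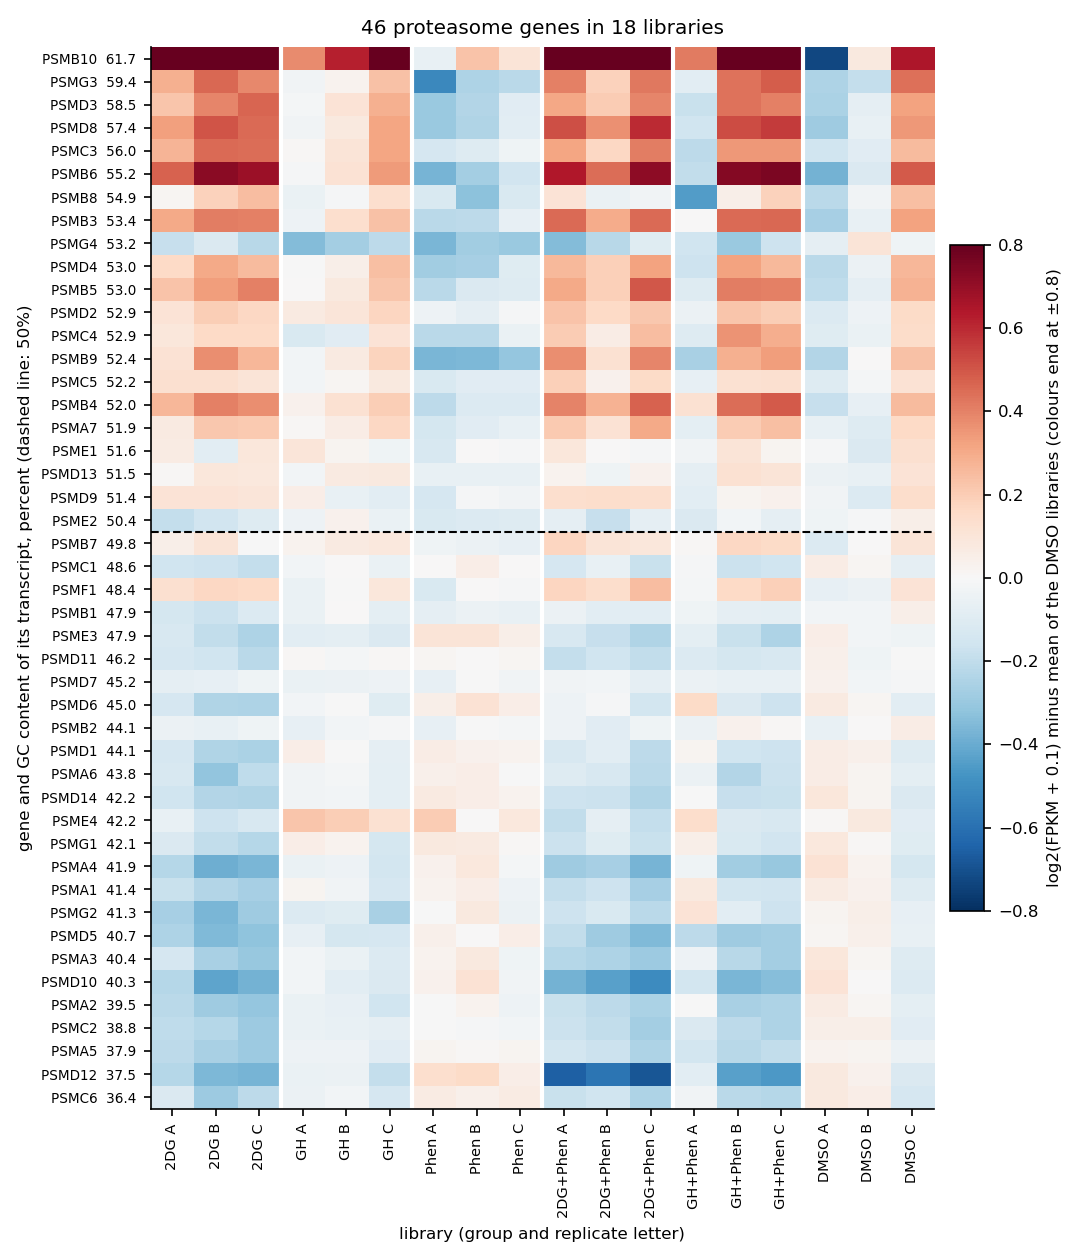
log2(FPKM + 0.1) of the 46 tested members in each of the 18 libraries, minus the mean of the DMSO libraries, with members ordered from high to low GC content (red, above DMSO; blue, below; colours end at ±0.8). Members above the dashed line at 50% GC and those under it take opposite colours in most libraries, and DMSO C and GH+Phen A do not look like the other libraries of their groups.

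The comparison of 2DG with DMSO asks how the members differ in cells given this glucose analogue. Of the 46 tested, 6 rose (13%) and 21 fell (45.7%), where 24.7% of all tested genes rose and 30.3% fell (55% in either direction). The median log2 fold change was −0.09 over the members and −0.05 over all genes, and the difference between members and other genes was not tested. In RNA from whole cultures, a small change in every cell cannot be told apart from a larger one in a part of the cells. Without DMSO C and GH+Phen A, 20 members rose and 22 fell, where 31.7% and 36.7% of all genes did. With libraries scaled by the median of ratios 13 rose (28.3%) and 18 fell (39.1%), where 28.7% and 22.7% of all genes did, so that the share of rises was that of genes at large. Of 10 markers of other cell types 9 were too low to test, and CD68, a lysosomal protein of macrophages that other cells also make, had 20.5 to 26.0 FPKM in 2DG, against 8.79 to 15.8 FPKM in DMSO. VIM rose by 0.24 and CD44 fell by 0.09 on the log2 scale. The part of these genes in the counts was not tested. With only 1 library left out the count of rises changed most, being 1 member without 2DG B, DMSO A or DMSO B and 2 without 2DG C, but 14 without GH+Phen A and 16 without DMSO C. The rises over all genes moved in the same fits, to 14.1%, 10.2%, 13.7%, 15.3%, 28.4% and 29.3%.

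PSMB10 rose most. Its FPKM was 2.62, 4.08 and 3.84 in 2DG A, B and C, against 0.682, 1.27 and 1.93 in DMSO A, B and C. The 2DG libraries all lay above those of DMSO, and the log2 fold change was 1.45 ± 0.32 (SE, adjusted p = 0.0029). The gene is on chromosome 16 (67934502 to 67937087, GRCh38, minus strand), and a second gene on the same strand, AC040162.1, averaged 0.393 FPKM and overlaps it, so some fragments could belong to either.

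PSMB6, the catalytic subunit that PSMB9 replaces, had 65.3, 77.7 and 75.8 FPKM in 2DG, against 36.3, 43.5 and 66.3 in DMSO. These groups overlapped through DMSO C, and the log2 fold change was 0.62 ± 0.23 (adjusted p = 0.033). PSMB3, a structural beta subunit, had 95, 102 and 102 FPKM in 2DG, against 64.1, 73.7 and 96.4 in DMSO (log2 fold change 0.37 ± 0.14, adjusted p = 0.031). It too overlapped only through DMSO C, which was the highest DMSO library for both. PSMB4, a structural beta subunit, PSMC3, a 19S ATPase, and PSMD8, of the 19S lid, completed the rise, with log2 fold changes of 0.35, 0.39 and 0.43. All 5 calls were lost without 2DG B, DMSO A or DMSO B. Without DMSO A, for example, PSMB6, PSMB3, PSMC3 and PSMD8 had adjusted p-values of 0.16, 0.17, 0.12 and 0.22. PSMD8 was near the threshold with all libraries (adjusted p = 0.049). Its call was also lost without single libraries of groups outside this comparison, such as GH A (0.053), Phen A (0.057) or 2DG+Phen A (0.059).

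The falls were smaller and more even. PSMD10, a chaperone of 19S assembly also known as gankyrin, had 28.1, 24.5 and 25.2 FPKM in 2DG, against 35.4, 32.9 and 30.4 in DMSO (log2 fold change −0.34 ± 0.07, adjusted p = 0.0018). PSMA4, an alpha subunit, had 36.5, 32.6 and 33.1 FPKM in 2DG, against 46.3, 43.5 and 38.8 in DMSO (−0.33 ± 0.07, adjusted p = 0.0032). PSMD12, of the 19S lid, had 32.0, 29.2 and 29.0 FPKM in 2DG, against 39.7, 38.4 and 34.7 in DMSO (−0.32 ± 0.08, adjusted p = 0.0074). In all 3 the libraries of the groups did not overlap. PSMD5, a 19S chaperone, fell by 0.31 and PSMG2, a 20S chaperone, by 0.30 on the log2 scale, also without overlap. The libraries of 2DG lay wholly below those of DMSO in 22 members and wholly above in 4, where 34.0% and 26.1% of all genes did so.

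By role, 6 of the 7 alpha subunits fell, under each scaling of the libraries but only PSMA4 after the GC and length correction, and PSMA7 did not pass the test (log2 fold change 0.17) but rose with median-of-ratios scaling. Of the beta ring, PSMB3, PSMB4 and PSMB6 rose, PSMB1 fell, and PSMB2, PSMB5 and PSMB7 did not pass. Of the 6 ATPases PSMC3 rose and PSMC1, PSMC2 and PSMC6 fell. Of the 8 lid subunits PSMD8 rose and PSMD6, PSMD11, PSMD12 and PSMD14 fell, and in the base PSMD1 fell. PSMD5 and PSMD10 of the 3 19S chaperones, PSMG1 and PSMG2 of the 4 20S chaperones, and PSME2 and PSME3 of the 4 activators fell. No role but the alpha ring moved nearly as a whole, and PSMA7 is the alpha subunit with the highest GC content, 51.9%, while the others had 37.9% to 43.8%.

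The changes of the members followed the GC content of their transcripts. Over the 46 members the 2DG change had r = 0.83 with GC content, and over all 12022 genes with a known GC content r = 0.69. This correlation is across genes, which are not replicates and share the libraries. Of the 21 members with a GC content of at least 50%, 6 rose and 1 fell, and of the 25 under 50%, 0 rose and 20 fell. Under 50% GC, 80% of the members and 48.7% of all genes fell, and from 50% upwards 28.6% of the members and 51.4% of all genes rose, differences that were not tested. Neither the GC content of the promoter (r = −0.22, 40 members) nor the transcript length (r = −0.33, log2 scale, 46 members) followed the change so closely.

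**Figure D3:**
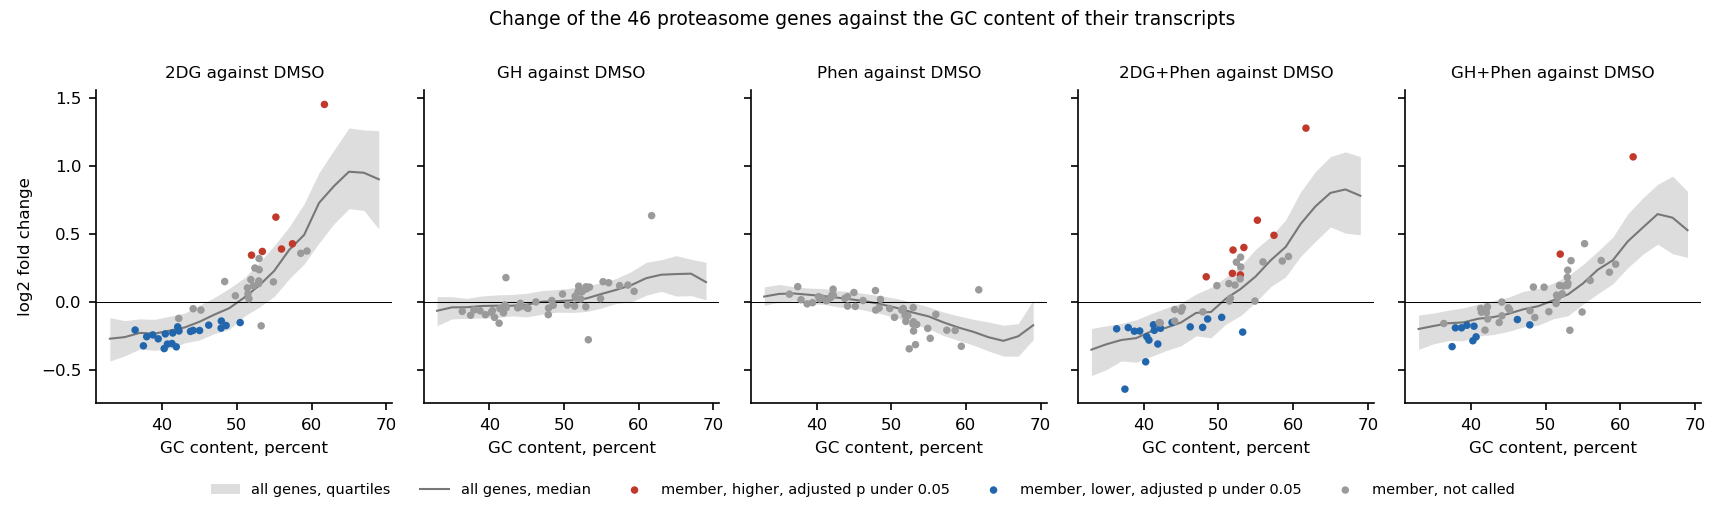
log2 fold change of each tested member against the GC content of its transcript, in 5 comparisons with DMSO, over the median (line) and quartiles (band) of all tested genes. In 2DG, 2DG+Phen and GH+Phen, the members, like the median of all genes, rise with GC content, in Phen they turn down, and PSMB10 lies above the band in each of the panels.

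After the trend on GC content and length had been removed from each library, 7 members rose and 7 fell in 2DG, where 23.7% of 12022 genes rose and 19.7% fell, and r with GC content was 0.30. Both fits called the rise of PSMB10, PSMB3, PSMB4 and PSMB6 and the fall of PSMA4, PSMD10, PSME2 and PSME3. PSMB10 kept a log2 fold change of 0.76 (adjusted p = 0.0010) and PSMB6 of 0.36 (adjusted p = 0.030). PSMB5, the catalytic subunit that PSMB8 replaces, PSMD7 of the lid and PSMF1 rose only with the correction, and PSMD3, PSMG3 and PSMG4 fell only with it. For PSMD3 and PSMG3 the direction turned, since as deposited they had log2 fold changes of 0.36 and 0.38. PSMA4 was the 1 alpha subunit that still fell (−0.11, adjusted p = 0.011).

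In GH, 0 of 46 members passed the test in limma, where 2.29% of all genes rose and 3.63% fell (5.92% in either direction), and 4 members had an unadjusted p under 0.05. The share of all genes at an unadjusted p under 0.05 is not given here, and the shares printed use the adjusted p. With voom on the recovered fragments 1 member, PSMG4, fell. Without DMSO C and GH+Phen A, 7 rose and 3 fell, where 9.57% and 8.62% of genes did. PSMB10 had 1.58, 1.90 and 2.33 FPKM in GH, against 0.682, 1.27 and 1.93 in DMSO, a log2 fold change of 0.64 ± 0.32 (adjusted p = 0.33) with overlapping groups. After the GC and length correction 3 members rose, where 8.12% of genes did: PSMB10 (0.48, adjusted p = 0.038), PSMD2 (0.09) and PSME4 (0.18, adjusted p = 0.0040), the activator PA200. PSME4 was also the 1 member whose GH libraries (14.5, 14.2 and 13.5 FPKM) all lay above those of DMSO (12.5, 13.1 and 11.6 FPKM), as did 9.54% of all genes, while 5 lay wholly below, PSMD5, PSMD7, PSME3, PSMG2 and PSMG4, as did 12.2% of all genes.

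In Phen, 0 members passed, where 0.339% of all genes rose and 0.206% fell (0.545% in either direction), and 3 had an unadjusted p under 0.05. The count was 0 with voom and without DMSO C and GH+Phen A as well. It was also 0 after the correction, where 2.39% of genes rose and 0.915% fell. The members' changes ran against GC content (r = −0.70), opposite in sign to those in 2DG. Of the members, 4 lay wholly below the DMSO libraries, PSMB1, PSMB9, PSME2 and PSMG4, where 8.04% of all genes did. Wholly above lay 0 members, where 9.7% of all genes did. A miss of the threshold does not show that Phen left these genes as they were.

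The combination of 2DG and Phen joins the glucose analogue with the inhibitor of complex I, and RNA levels do not measure either block. In 2DG+Phen 8 members rose (17.4%) and 18 fell (39.1%), where 21.1% of all genes rose and 32.8% fell (53.9% in either direction), with a median log2 fold change of −0.06 over members and −0.05 over all genes. Without DMSO C and GH+Phen A, 18 rose and 20 fell, where 30.4% and 37.7% of all genes did, and with median-of-ratios scaling 15 rose and 9 fell, where 27.5% and 24.8% did. CD68 had 21.6 to 27.3 FPKM in 2DG+Phen, against 8.79 to 15.8 FPKM in DMSO (log2 fold change 1.04, adjusted p = 0.0026), and VIM (0.36) and CD44 (0.12) rose as well. Their part in these counts was not tested. Leaving out 2DG+Phen C, DMSO A or DMSO B lowered the 26 calls to 15, 12 and 13. The shares of all genes in these fits are not given here, so the drop is not read as particular to the members. After the GC and length correction the balance turned, with 18 that rose and 5 that fell, where 28.7% and 21.9% of genes did, and PSMA5, PSMC2 and PSMC6 are among the falls of the first fit and the rises of the second.

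PSMD12 fell most and fell in both fits. It had 23.9, 25 and 23.4 FPKM in 2DG+Phen, against 39.7, 38.4 and 34.7 in DMSO, and every 2DG+Phen library was under every library of the other groups. The log2 fold change was −0.64 ± 0.08 (adjusted p = 3.2e-05) and −0.31 after the correction (adjusted p = 1.9e-07). The gene lies on chromosome 17 (67337916 to 67366627, GRCh38, minus strand). PSMD10 had 25.2, 24.3 and 23.1 FPKM in 2DG+Phen, against 35.4, 32.9 and 30.4 in DMSO (−0.44 ± 0.07, adjusted p = 0.00017). These 2 falls, with those of PSME2 and PSMG4, held after the correction, whereas that of PSMD5 (−0.28 ± 0.05) became 0.004.

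Among the rises, PSMB10 had 2.75, 2.59 and 3.97 FPKM in 2DG+Phen, against 0.682, 1.27 and 1.93 in DMSO (log2 fold change 1.28 ± 0.32, adjusted p = 0.0051). PSMB4 had 103, 94.5 and 108 FPKM in 2DG+Phen, against 68.4, 74.4 and 92.7 in DMSO (0.38 ± 0.11, adjusted p = 0.0085). In both the groups did not overlap. PSMB6 (0.60), PSMD8 (0.49) and PSMB3 (0.40) were the other large rises, and PSMA7, PSMD2 and PSMF1 rose by less. All 8 were called after the correction too. That of PSMB4 was lost without DMSO A (0.29, adjusted p = 0.052). The rises of PSMB6, PSMD8 and PSMB3 were lost without 2DG+Phen A, 2DG+Phen C, DMSO A or DMSO B. By role, 6 alpha subunits fell and PSMA7 rose, although 3 fell with median-of-ratios scaling and 0 after the correction, and of the ATPases PSMC1, PSMC2 and PSMC6 fell.

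**Figure D4:**
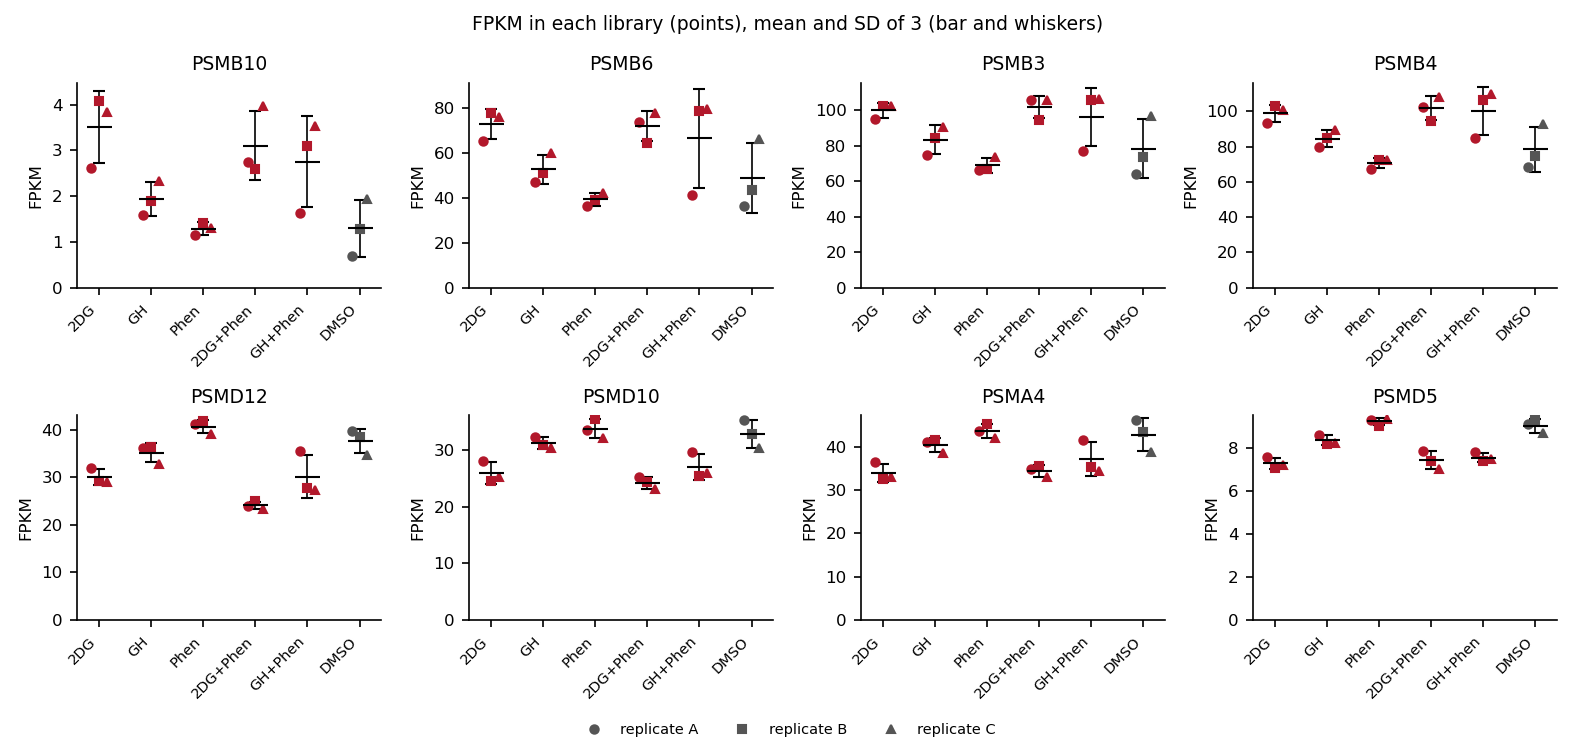
FPKM of 8 members in each library (points; circles, replicate A; squares, B; triangles, C) with the mean and SD of each group of 3. PSMB10, PSMB6, PSMB3 and PSMB4 are higher in 2DG and 2DG+Phen, with GH+Phen A and DMSO C far from their groups, and PSMD12 is lowest in 2DG+Phen.

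Set against 2DG alone, 2DG+Phen changed 1 member: PSMD12, with a log2 fold change of −0.32 ± 0.08 (adjusted p = 0.023) and −0.24 after the correction (adjusted p = 8.8e-06). Here 3.53% of all genes rose and 7.69% fell. Without 2DG A, 2DG+Phen A or 2DG+Phen C the call was lost (adjusted p = 0.10, 0.072 and 0.080). The interaction term asks whether the combination departs from the sum of the single changes, and for 2DG and Phen 0 of 46 members passed in limma (4 at an unadjusted p under 0.05), where 1.38% of genes lay above the sum and 3.59% below (4.97% either way). PSMD12 came nearest, at −0.43 ± 0.12 (adjusted p = 0.051), and it passed with voom, without DMSO C and GH+Phen A and after the correction (−0.31, adjusted p = 6.8e-05), where 5.68% of genes lay above and 7.15% below. After the correction PSMA2, PSMA5, PSMD1, PSMD2, PSMD8 and PSMG2 were higher in 2DG+Phen than in 2DG, where 13.2% of genes were. Against Phen alone, 2DG+Phen raised 18 members and lowered 19, where 29.2% of all genes rose and 36.2% fell (65.4% in either direction). After the correction 17 rose and 6 fell, where 27.2% and 23.2% of genes did. The largest as deposited were PSMB10 (1.19), PSMB6 (0.87), PSMD8 (0.70), PSMD12 (−0.75), PSMD10 (−0.48) and PSMA4 (−0.34).

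In GH+Phen, 2 members rose (4.35%) and 9 fell (19.6%), where 9.4% of all genes rose and 18.6% fell (28% in either direction), and with median-of-ratios scaling 3 rose and 7 fell, where 12.5% and 13.7% of genes did. CD68 had 12.8 to 24.3 FPKM in GH+Phen, against 8.79 to 15.8 FPKM in DMSO (log2 fold change 0.73, adjusted p = 0.033), and VIM rose by 0.26, and their part in these counts was not tested. The shares called depend on GH+Phen A and DMSO C, which were picked from their GC slopes in these data. Without both, DMSO A and B were compared with GH+Phen B and C, so the replicate letters did not match. In that fit 19 rose and 20 fell, where 31.1% and 32.7% of all genes did. Without GH+Phen A alone 16 rose and 17 fell, where 26.7% and 29.5% of genes did, without DMSO C alone 10 and 15, where 21.1% and 22.6% did, and in a model of only these groups 0 members passed. Leaving out GH+Phen B, GH+Phen C, DMSO A or DMSO B gave 6, 5, 5 and 7 calls. The shares of all genes in these fits and in the model of only these groups are not given here. These counts are therefore not read as particular to the members. After the correction 5 members rose and 5 fell, where 20.7% and 17.1% of genes did.

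PSMB4 had 84.6, 106 and 110 FPKM in GH+Phen, against 68.4, 74.4 and 92.7 in DMSO (log2 fold change 0.35 ± 0.11, adjusted p = 0.023). PSMB10 had 1.63, 3.10 and 3.53 FPKM in GH+Phen, against 0.682, 1.27 and 1.93 in DMSO (1.07 ± 0.32, adjusted p = 0.024). Both overlapped DMSO through GH+Phen A, and both were called after the correction (0.29 and 0.61). Both calls were lost without GH+Phen B, GH+Phen C, DMSO A or DMSO B. PSMD5 (7.79, 7.40 and 7.46 FPKM in GH+Phen, against 9.12, 9.31 and 8.67 in DMSO) fell by 0.26 ± 0.05 on the log2 scale (adjusted p = 0.0012) without overlap. PSMD12 (−0.33), PSMD10 (−0.28), PSMC2 (−0.19) and PSMA5 (−0.19) were the other large falls, and of these PSMD12 and PSMD10 fell after the correction (−0.14 each), as did PSME3, PA28 gamma. The call of PSMD12 was lost without GH+Phen B, GH+Phen C or DMSO A.

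Against GH alone, GH+Phen lowered PSMA5 (−0.13) and PSMD11 (−0.13) of the lid, and raised 0 members, where 9.22% of genes fell and 3.3% rose. Without GH+Phen A, 6 rose and 15 fell, where 16.6% and 22.8% of genes did, while without GH A, GH B, GH+Phen B or GH+Phen C 1 fell, and after the correction PSMB4, PSMC4 and PSMG2 rose (6.52%) and PSMC3, PSMD10, PSMD12 and PSME4 fell (8.7%), where 11.8% and 10.4% of genes did. In the fit without GH A, 1.98% of all genes rose and 5.1% fell. Against Phen alone, 14 rose and 14 fell, where 23.5% and 24.2% of genes did, a total that was 8 without Phen A, GH+Phen B or GH+Phen C and 13 without Phen B. For these leave-outs the shares of all genes are not given here. The largest changes against Phen alone were PSMB10 (0.98), PSMB6 (0.70), PSMG3 (0.60), PSMD12 (−0.44), PSMD10 (−0.32) and PSMD5 (−0.29). For the interaction of GH and Phen 0 members passed (11 at an unadjusted p under 0.05), where 1.45% of genes lay above the sum and 3.73% below (5.19% either way), but 13 lay above and 12 below without GH+Phen A, where 17.9% and 19.7% of genes did. These shares use the adjusted p, so no share of all genes stands beside the 11, which are not read as a result. After the correction PSMC4 lay above the sum, and PSMC3, PSMD10 and PSMD12 below it, where 4.92% and 5.96% of genes did.

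**Figure D5:**
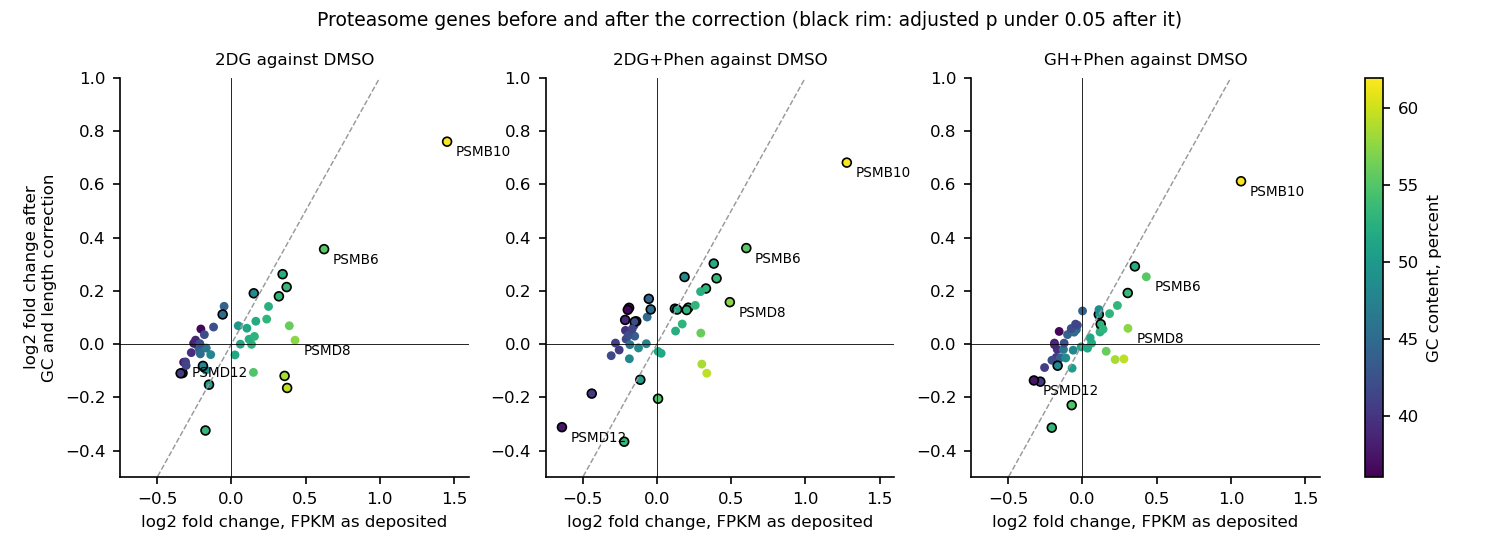
log2 fold change of the tested members after the GC and length correction against that of the FPKM as deposited, for 3 comparisons with DMSO, coloured by GC content (dashed line, no change by the correction; black rim, adjusted p under 0.05 after it). Changes shrink towards 0 in most members, and PSMB10 at the upper right and PSMD12 at the lower left of the 2DG+Phen panel stay apart.

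At the study's thresholds, a fold of at least 2, a Bonferroni p of at most 0.05 and a mean FPKM of at least 1, 0 of 46 members passed in any comparison with DMSO. Of all genes 0.429% passed in 2DG, 0.0991% in GH, 0.00826% in Phen, 1.37% in 2DG+Phen and 0.545% in GH+Phen. PSMB10 was the 1 member with a change of over 1 on the log2 scale.

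PSMB10 rose more than PSMB8 and PSMB9 in 2DG, 2DG+Phen and GH+Phen, a difference that was not tested. PSMB8 had log2 fold changes of 0.15 in 2DG (adjusted p = 0.37), 0.01 in 2DG+Phen and −0.07 in GH+Phen, and PSMB9 of 0.25 (adjusted p = 0.15), 0.29 and 0.12, none of which passed. Without DMSO C, PSMB9 passed as higher in 2DG (adjusted p = 0.046) and 2DG+Phen (adjusted p = 0.029). Without GH+Phen A it passed in 2DG+Phen (adjusted p = 0.028) and GH+Phen (adjusted p = 0.041). Against Phen alone PSMB9 rose in both combinations, also after the GC and length correction. After the correction PSMB8 fell in 2DG+Phen (−0.21, adjusted p = 0.028) and GH+Phen (−0.23, adjusted p = 0.021). PSME1, the alpha subunit of the interferon-induced activator PA28, changed by 0.02, 0.03 and 0.03 in these groups, and PSME2, its beta subunit, fell in 2DG (−0.15, adjusted p = 0.0089) and 2DG+Phen (−0.11, adjusted p = 0.033), the second only with 2DG+Phen B, DMSO B and DMSO C all included. Per kilobase as deposited, PSMB10 stood to PSMB7 as 0.0351 ± 0.0077 in 2DG, against 0.0131 ± 0.0055 in DMSO (SD, n = 3 each). PSMB8 stood to PSMB5 as 0.470 ± 0.011 in 2DG against 0.529 ± 0.015 in DMSO, and PSMB9 to PSMB6 as 0.0588 ± 0.0015 against 0.0765 ± 0.0110. The libraries of the groups did not overlap in any of the 3 ratios, with PSMB10 higher in 2DG relative to its partner and PSMB8 and PSMB9 lower. The ratios carry no GC correction, and the partners differ in GC content. It was 61.7% for PSMB10 and 49.8% for PSMB7, 54.9% for PSMB8 and 53.0% for PSMB5, and 52.4% for PSMB9 and 55.2% for PSMB6. The ratios themselves, and the part of GC content in them, were not tested.

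Of the antigen processing genes around them, 9 of 10 were tested. With 2DG 1 was higher and 4 were lower, with 2DG+Phen 4 were lower and with GH+Phen 3 were lower, while 0 passed with GH or with Phen. Of all genes, 24.7% were higher and 30.3% lower with 2DG, 21.1% and 32.8% with 2DG+Phen, and 9.4% and 18.6% with GH+Phen. With 9 genes these counts are small, and their differences from all genes were not tested. IRF1, a transcription factor that drives interferon-induced genes including those of the immunoproteasome, had 1.52, 2.12 and 2.18 FPKM in GH+Phen, against 2.73, 3.08 and 3.96 in DMSO, without overlap (log2 fold change −0.72 ± 0.14, adjusted p = 0.0014). ERAP2 in 2DG (−0.32) and ERAP1 in 2DG+Phen (−0.22, and 0.02 after the correction), the peptidases that trim peptides after the proteasome, changed by less. In GH+Phen PSMB10 was therefore higher and IRF1 lower than in DMSO. In 2DG, where PSMB10 also rose, IRF1 averaged 3.65 FPKM against 3.26 FPKM in DMSO, with overlapping libraries. In 2DG+Phen IRF1 averaged 2.21 FPKM. A link between these genes was not tested.

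Genes that regulate or accompany the proteasome were counted in the same way, beside the 55% of all genes called in 2DG, 53.9% in 2DG+Phen, 28% in GH+Phen, 5.92% in GH and 0.545% in Phen. By direction, 24.7% of all genes rose and 30.3% fell in 2DG, 21.1% and 32.8% in 2DG+Phen, and 9.4% and 18.6% in GH+Phen. The regulators spanned a GC content of 41.2% (NGLY1) to 63.9% (HSF1), and from 50% upwards 51.4% of all genes rose in 2DG. The part of GC content in the counts was not tested. Of 10 regulators of proteasome genes, 5 were higher and 3 lower with 2DG, 4 higher and 2 lower with 2DG+Phen, and 4 higher and 1 lower with GH+Phen, while GH gave 1 in each direction and Phen 0. MAFF, a small MAF protein that pairs with NFE2L1 and NFE2L2 on the antioxidant response element, had 5.23, 4.81 and 5.27 FPKM in 2DG+Phen, against 2.18, 2.31 and 2.62 in DMSO (log2 fold change 1.08 ± 0.09, adjusted p = 2.4e-07). DDI2, the protease that activates NFE2L1, had 3.98, 4.52 and 4.27 FPKM in 2DG+Phen, against 6.82, 6.56 and 6.61 in DMSO (−0.64 ± 0.06, adjusted p = 2.1e-06). Neither gene had overlapping groups, and both were called after the correction (0.66 and −0.48). NFE2L2, the regulator NRF2, fell in 2DG (−0.43 ± 0.06, adjusted p = 0.00018).

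Of 17 proteasome partners, 4 were higher and 7 lower with 2DG, 3 higher and 8 lower with 2DG+Phen, and 2 higher and 3 lower with GH+Phen, while GH gave 1 in each direction and Phen 0. Of all genes, 24.7% were higher and 30.3% lower with 2DG, 21.1% and 32.8% with 2DG+Phen, and 9.4% and 18.6% with GH+Phen. In either direction 5.92% were called with GH and 0.545% with Phen, and differences from all genes were not tested. RAD23B, which carries ubiquitin chains to the proteasome, rose in 2DG+Phen (0.23 ± 0.04, adjusted p = 0.00020), and AKIRIN2, which takes proteasomes into the nucleus, fell there (−0.43 ± 0.07, adjusted p = 0.00024). ZFAND5, a ubiquitin-binding activator of the proteasome, fell in 2DG (−0.38 ± 0.08, adjusted p = 0.0018). UBA1, the main ubiquitin-activating enzyme, rose in 2DG (0.51, adjusted p = 0.010). UBA6, the alternative enzyme, fell in 2DG+Phen (−0.38, adjusted p = 0.0074) but not after the correction (−0.10, adjusted p = 0.071).

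Members varied together across the 18 libraries in the same GC classes. The median correlation of log2(FPKM + 0.1) was 0.85 over the 210 pairs of members from 50% GC upwards, 0.80 over the 300 pairs under 50%, −0.78 over the 525 pairs across this line and 0.05 over all 1035 pairs. These pairs share the libraries and their GC slopes, and the values are a description without a test.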

How the data were processed

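Total RNA of T98G cells, 3 libraries for each of 6 groups, had been sequenced by strand-specific RNA-Seq. The authors aligned the reads with CLC Genomics Workbench to the human genome with Ensembl genes (GRCh38 coordinates) and deposited FPKM per gene and library. The deposited FPKM were divided by the value of 1 fragment, which gave whole fragments for 99.9523% of the 25158 genes above 0 (tolerance 0.001) and 18417756 to 22497604 mapped fragments per library. The low floors given in the text cover counting error only.

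Genes with at least 0.5 FPKM in at least 3 libraries were tested on log2(FPKM + 0.1) with limma 3.58.1 (trend, R 4.3.3), in 1 model of 6 groups with 12 residual degrees of freedom. The authors' tool for differential expression was not used here. Changes understate the fold of low genes. All pairs of replicates differed by more than sampling noise (chi-square per degree of freedom of at least 1.35), so each library counted once. Exact permutation of 3 against 3 libraries cannot go below p = 0.1, and no such p is given. GC content and length came from Ensembl canonical transcripts of GENCODE release 44 (99.29% of tested genes), and natural splines of 4 degrees of freedom on both were removed from each library for the correction. The scripts were tested on simulated data. Alternatives were other pseudocounts, filters and scalings, the correction, the replicate letter as a block, each library left out, the compared groups alone and, chosen after seeing the data, voom and the correction without 2 libraries.

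Members, roles and lists were chosen with earlier results of these data known, and PSMB10 and PSMD6-AS2 had been seen in the study's gene table. Named were the 5 largest rises and falls in each comparison with DMSO, 3 in the others, the immunoproteasome genes and 3 genes per list with the smallest adjusted p. For 1 list, a gene and the counts that include it are not reported here. PSME4, PSMD2, the corrected calls and members listed by role were named after their values were seen.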

Additional observations from a re-analysis of the deposited data

How the results depend on the processing

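Counts of members called (of 46, both directions) moved by over 1.5 times under these settings. After the GC and length correction they were 14 in 2DG and 3 in GH against DMSO, 7 for 2DG+Phen against 2DG, 23 for 2DG+Phen against Phen, 7 for GH+Phen against GH, 15 for GH+Phen against Phen, and 1 and 4 for the interactions of 2DG and of GH with Phen. Without DMSO C and GH+Phen A they were 42 in 2DG, 10 in GH and 39 in GH+Phen against DMSO, 2 for 2DG+Phen against 2DG, 27 for GH+Phen against GH, and 1 and 13 for the interactions. The correction without these libraries gave 8 in GH, 1 in Phen and 23 in GH+Phen against DMSO, 9 for 2DG+Phen against 2DG, 12 for GH+Phen against GH, and 3 and 6 for the interactions. Without a filter on low values 17 members were called in 2DG+Phen and 7 in GH+Phen against DMSO, and 18 for GH+Phen against Phen. With only the groups compared 17 were called in 2DG+Phen and 0 in GH+Phen against DMSO, 0 for GH+Phen against GH, 6 for GH+Phen against Phen and 1 for the interaction of 2DG and Phen. That interaction also gave 1 member with voom and with a minimum of 1 FPKM, GH against DMSO gave 1 with voom, and GH+Phen against GH gave 1 with median-of-ratios scaling. The shares of all genes moved too. After the correction 23.7% rose and 19.7% fell in 2DG, where 24.7% and 30.3% did as deposited. In GH the correction gave 8.12% and 7.74%, against 2.29% and 3.63% as deposited. Without the filter 7.47% of all genes rose and 15.2% fell in 2DG+Phen, and 3.45% and 7.56% did in GH+Phen. Not every count here has such a share beside it, and the cause of these changes was not tested. At the study's thresholds the count of members was 0 under all settings that were run.

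Libraries with the same letter had deviations from their group means that correlated by −0.43 to 0.59, over 0.1 in 29 of 45 pairs, with a mean of 0.18 against −0.094 for libraries of other letters, and because not every pair passed 0.1 the letters were not taken to pair the libraries. With the letter as a replicate block, 18 members were called in GH+Phen against DMSO, 8 for GH+Phen against GH, and 1 and 9 for the interactions, and with block and correction together 5 in GH and 1 in Phen against DMSO, 8 for 2DG+Phen against 2DG, 8 for GH+Phen against GH, 17 for GH+Phen against Phen, and 2 and 7 for the interactions. The block alone called 20.2% of all genes as higher and 23.6% as lower in GH+Phen against DMSO. For GH+Phen against GH these shares were 6.13% and 13.3%. They were 2.07% and 5.34% for the interaction of 2DG and Phen, and 5.66% and 8.96% for that of GH and Phen. Block and correction together gave 9.22% and 8.68% in GH, and 2.91% and 1.08% in Phen.

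With each library left out in turn, the counts ranged over 12 to 37 in 2DG+Phen and 5 to 33 in GH+Phen against DMSO, 0 to 1 for 2DG+Phen against 2DG, 1 to 21 for GH+Phen against GH, 8 to 38 for GH+Phen against Phen, and 0 to 1 and 0 to 25 for the interactions. The highest counts for GH+Phen and for its interaction came without GH+Phen A. The shares of all genes, given above, were higher in that fit too. Signs turned for these members, none of them called in the comparison. PSME1 ranged over −0.034 to 0.089 in 2DG, −0.028 to 0.094 in GH, −0.11 to 0.018 in Phen, −0.030 to 0.093 in 2DG+Phen and −0.025 to 0.098 in GH+Phen. PSMB8 ranged over −0.082 to 0.15 in GH, −0.10 to 0.13 in 2DG+Phen and −0.20 to 0.12 in GH+Phen, and PSMB9 over −0.042 to 0.19 in GH and −0.00048 to 0.31 in GH+Phen. PSME2 in GH (−0.048 to 0.00042) and PSMB10 in Phen (−0.27 to 0.42) turned too.

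Of the log2 fold changes of named members, 36 reversed and 767 kept their direction and their side of the threshold under the settings other than leaving out 1 library. A further 74 kept their direction but lost the call, and 19 gained it. Leaving out 1 library, 20 reversed, 69 lost the call, 4 gained it and 1059 stayed the same. With the correction, and the same with the block added, PSMB8 became −0.11 in 2DG, −0.035 in GH and −0.21 in 2DG+Phen, PSME1 −0.041 in 2DG, 0.070 in Phen, −0.035 in 2DG+Phen and −0.015 in GH+Phen, PSMD5 0.0040 in 2DG+Phen and PSMA5 0.0038 in GH+Phen. With the correction and without DMSO C and GH+Phen A, PSMB8 was −0.082 in 2DG, −0.011 in GH, 0.0085 in Phen and −0.18 in 2DG+Phen, PSME1 −0.026 in 2DG, 0.085 in Phen, −0.020 in 2DG+Phen and −0.035 in GH+Phen, PSMD5 0.018 in 2DG+Phen, PSMC2 0.045 and PSMA5 0.099 in GH+Phen, PSMA5 0.061 for GH+Phen against GH and PSMG3 −0.0080 for GH+Phen against Phen. Without those libraries alone PSME2 was 0.00042 in GH, PSME1 0.018 in Phen and PSMB8 0.24 in GH+Phen. Leaving mitochondrial genes out of the totals gave PSMB8 −0.022 and PSME1 −0.0012 in 2DG+Phen.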

Other observations

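Besides the 48 members, 37 listed genes carry a symbol that begins like theirs, antisense RNAs and pseudogenes among them, and 5 of these were tested. PSMD6-AS2, an antisense RNA to the lid subunit PSMD6, had 0.771, 0.433 and 0.774 FPKM in 2DG, 0.884, 0.80 and 0.90 in GH, 1.66, 1.51 and 1.98 in Phen, 0.310, 0.618 and 0.433 in 2DG+Phen and 0.724, 0.482 and 0.779 in GH+Phen, against 1.72, 1.67 and 1.58 in DMSO. Its libraries did not overlap those of DMSO in any group but Phen. It fell in 2DG (log2 fold change −1.25, adjusted p = 0.00064), GH (−0.87, adjusted p = 0.030), 2DG+Phen (−1.70, adjusted p = 2.7e-05) and GH+Phen (−1.23, adjusted p = 0.00094), and had a value of 0.04 in Phen. The falls were −1.02, −0.82, −1.45 and −1.08 after the GC and length correction. PSMD6 itself, on the opposite strand, fell in 2DG (−0.21, adjusted p = 0.025) and was not called in the other comparisons with DMSO. PSMB8-AS1, which overlaps PSMB9 on the same strand, fell in 2DG (−0.59, adjusted p = 0.0018), so fragments of these genes may be shared.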
